A study of Mus musculus with 31 samples.

Results

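Interleukin-33, caspase-1 and the IRAK proteins belong to the innate alarm system through which cells detect damage and microbes, and 10 genes of that system were followed across cortical and striatal dopamine-receptor neurons of young and old mice. The listed genes were Il33, Il18 and Il1b (ligands), Il1rap (receptor), Myd88 (adaptor), Irak1, Irak3 and Irak4 (kinase family), Peli2 (ubiquitin ligase) and Casp1 (protease). They were chosen by gene symbol, with earlier results of these data known. Of these 10 genes, 9 were named by exactly 1 of the 16345 array features, and Irak4 was not named by any feature and is not analysed here. RNA bound to ribosomes of cells labelled Drd1a-expressing or Drd2-expressing was purified by translating ribosome affinity purification (TRAP), in which a tag on the ribosomes of 1 kind of cell lets its translated messages be pulled out of whole tissue. Each purification used the whole cortex or the whole striatum of mice aged 6 weeks (young) or 2 years (old), and the labels name no treatment, strain, sex or driver line. The 31 arrays formed 8 groups (young or old, cortex or striatum, Drd1a or Drd2 cells), of 4 arrays apiece except for the 3 of young striatum Drd1a. Separate animals are not stated for the arrays of a group, and the p-values thus reflect only how these samples vary, which may be technical.

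As background, ligands of the interleukin-1 family and microbial products of Toll-like receptors signal through receptors that share an intracellular TIR domain. The adaptor MyD88 binds this domain and gathers IRAK4 and IRAK1, which act through ubiquitin ligases, among them TRAF6 and the Pellino proteins, on NF-kappaB. Interleukin-1 beta and interleukin-18 are made as precursors that caspase-1 cuts inside inflammasomes, whereas interleukin-33 is stored in the nucleus and released by damaged cells. In the mouse brain interleukin-33 is known mainly from oligodendrocytes and astrocytes, and most other members are best known from microglia and macrophages.

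All values are log2 intensities relative to the median of the same feature over the arrays, so they can be compared between arrays for 1 gene and not between genes, and no absolute level was kept. Array medians lay between -0.07 and 0.13. The receptor genes followed the labels, with Drd1 (the gene labelled Drd1a) highest in Drd1a arrays and Drd2 highest in Drd2 arrays. The old Drd2 arrays stood apart in Drd1, which was at -1.18 ± 0.50 (SD, n = 4) in old cortex Drd2 against -2.91 ± 0.03 (SD, n = 4) in young cortex Drd2, and at -0.34 ± 0.24 (SD, n = 4) in old striatum Drd2 against -2.75 ± 0.27 (SD, n = 4) in young striatum Drd2. Of 8 measured markers of direct-pathway neurons, the striatal neurons that carry Drd1, 4 rose with age in cortex Drd2 arrays and 6 in striatum Drd2 arrays. Of all features, 3.63% changed in either direction in cortex Drd2 and 5.7% in striatum Drd2, at the limits given below. In cortex Drd1a arrays Drd2 ran from -4.87 to -4.31 at 6 weeks and from -3.96 to -3.62 at 2 years. In striatum Drd1a arrays it ran from -4.22 to -3.07 and from -3.57 to -2.90. Of 5 measured markers of indirect-pathway neurons, the striatal neurons that carry Drd2, 0 were called with age in cortex Drd1a arrays. In striatum Drd1a arrays 1 rose. The shares of all features called there were 0.453% in cortex and 3.43% in striatum. A difference in purified RNA can come from fewer or more cells of a type or from less or more RNA per cell, and these cannot be told apart. Differences were called at a limma p under 0.05 after Benjamini-Hochberg adjustment across the 16345 features, together with a size of 1.2-fold or more, both limits being those in the series' own design.

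Il33 was higher at 2 years than at 6 weeks in all 4 cell populations, and it rose past the test in both Drd2 populations, by 2.53-fold in cortex and 2.04-fold in striatum. Casp1 rose in both cortical populations, by 1.80-fold in Drd1a and 1.56-fold in Drd2 cells, and did not pass the test in striatum. Irak3 rose in striatum Drd1a cells by 2.15-fold. Peli2 fell in both Drd2 populations. Of the 9 measured members, 1 was called in cortex Drd1a, where 0.453% of all features were called, and 3 in cortex Drd2, where 3.63% were called. In striatum, 1 was called in Drd1a cells, beside 3.43% of all features, and 2 in Drd2 cells, beside 5.7% of all features. Averaged over the 4 age comparisons, 4 of 9 members were called (Il33, Irak3, Casp1 and Il18, all higher), beside 5.07% of all features. Peli2 was lower in that average (difference -0.23 ± 0.05, limma, adjusted p = 0.0011) and missed only the fold limit, at 1.18-fold. It was called there under quantile normalization (-0.27, limma, adjusted p = 0.00399). Il1b, Il1rap, Myd88 and Irak1 were called in none of these 5 age contrasts. Since the members were chosen with earlier results of these data known, the counts describe this list and do not test the pathway.

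**Figure D1:**
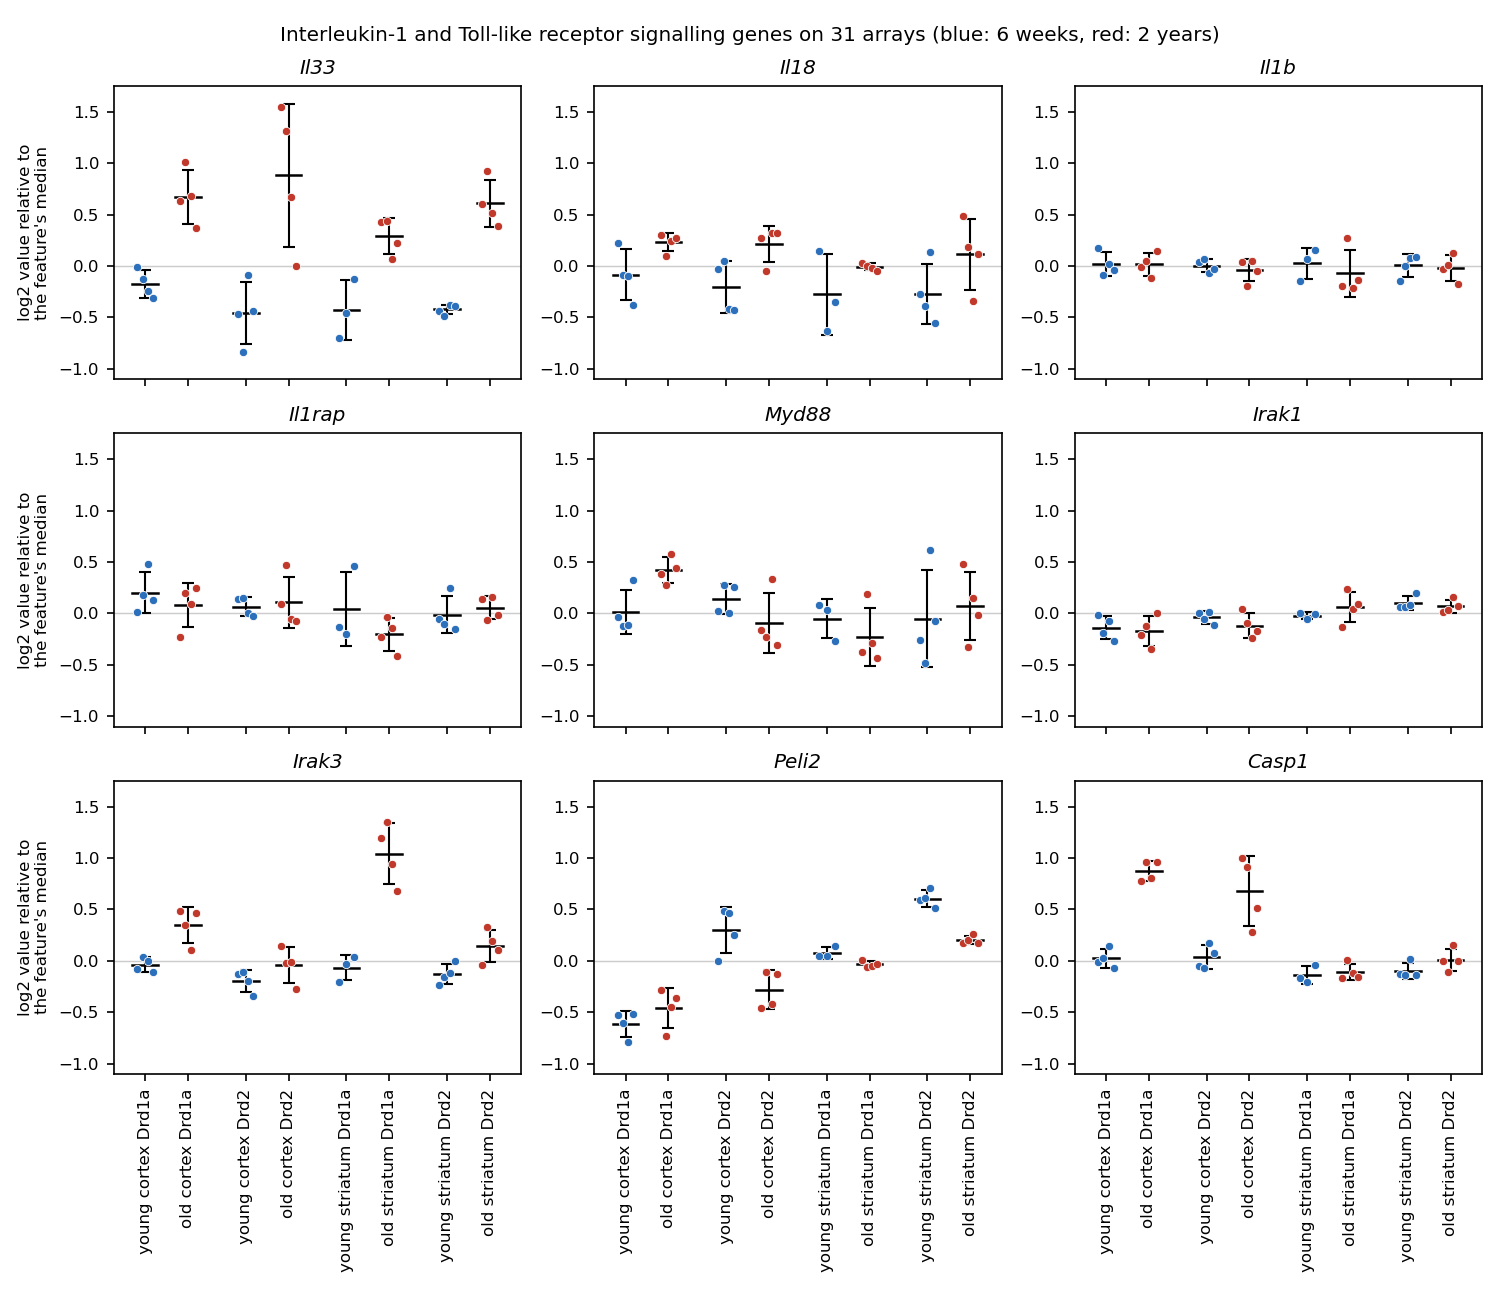
Log2 value of each of the 9 genes relative to its feature's median on each array (1 point per array, blue 6 weeks, red 2 years), with group mean and SD (n = 4, or 3 in young striatum Drd1a). The red Il33 points lie above the blue ones in all 4 populations, the red Casp1 points stand high in the 2 cortical populations, and the red Irak3 points stand highest in striatum Drd1a.

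Il33 (feature 6869068) encodes the alarmin that signals through the receptor ST2 and the shared subunit encoded by Il1rap. In cortex Drd1a arrays it was at -0.01, -0.12, -0.25 and -0.32 at 6 weeks and at 0.63, 1.01, 0.68 and 0.37 at 2 years. In cortex Drd2 arrays it was at -0.47, -0.83, -0.09 and -0.44 at 6 weeks and at 1.54, 1.31, 0.67 and 0 at 2 years. The old arrays lay above the young ones in both cortical populations, and the old cortex Drd2 arrays ranged most widely of the 8 groups, with replicates 1 and 2 high and replicate 4 close to the young arrays. In striatum Drd1a arrays it was at -0.70, -0.46 and -0.12 at 6 weeks and at 0.43, 0.44, 0.07 and 0.22 at 2 years. In striatum Drd2 arrays it was at -0.44, -0.48, -0.38 and -0.39 at 6 weeks and at 0.61, 0.93, 0.51 and 0.39 at 2 years. Here too no old array overlapped a young one, and the young striatum Drd2 arrays lay closest together.

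The age difference of Il33 was 1.34 ± 0.21 log2 units (SE) in cortex Drd2 (limma, adjusted p = 0.000913) and 1.03 ± 0.21 in striatum Drd2 (limma, adjusted p = 0.00257). In cortex Drd1a it was 0.85 ± 0.21 (limma, adjusted p = 0.0691) and in striatum Drd1a 0.72 ± 0.23 (limma, adjusted p = 0.0783), both short of the threshold. These differences between populations were not themselves past the test: the age change in Drd2 minus that in Drd1a cells was 0.49 in cortex, with a 95% confidence interval from -0.12 to 1.11, and 0.31 in striatum, with an interval from -0.33 to 0.95. Averaged over the 4 comparisons the rise was 0.98 ± 0.11 (limma, adjusted p = 2.45e-07). Because Drd1 stood apart in the old Drd2 arrays, the mean of the 2 Drd1a comparisons alone was also taken, a choice made after those values had been seen. This mean is not free of such shifts, since Drd2 in cortex Drd1a arrays also lay higher at 2 years. In that mean Il33 rose by 0.78 ± 0.16 (limma, adjusted p = 0.00294), and 3 of 9 members were called (Il33, Irak3 and Casp1), beside 3.37% of all features. Fitted to the 2 cortex Drd2 groups alone, without the spread of the other groups, the same difference had an adjusted p of 0.0776 (limma), and the call was lost.

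Il33 also parted the arrays by age across all populations. The lowest of the 16 old arrays was at 0 (old cortex Drd2 replicate 4) and the highest of the 15 young arrays at -0.0052 (young cortex Drd1a replicate 1), a gap of 0.0052 log2 units. Only 2 of the 16345 features (0.0122%) had every old array above every young one, and the other was a feature shared by several genes. With the arrays centred on their medians the gap of Il33 was 0.0544 and with quantile normalization 0.0747, and 3 features then met the condition. Non-overlap with old above young in each of the 4 comparisons separately was met by 32 features (0.196%), and with old below young by 54 (0.33%). Every old array lay below every young one for 10 features (0.0612%) as deposited, for 3 with array centring and for 5 with quantile normalization. In single comparisons, the arrays of the 2 ages did not overlap for 8.07% of all features in cortex Drd1a, 9.11% in cortex Drd2, 11.8% in striatum Drd1a and 9.62% in striatum Drd2.

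Genes with the pattern most like that of Il33 over the 31 arrays were Gfap (Pearson r = 0.859), Aldh6a1 (r = 0.851), Anln (r = 0.831), Camk2a (r = 0.826) and Nefh (r = 0.826), among 13537 features compared. Gfap encodes the intermediate filament of astrocytes and Nefh a neurofilament subunit, so the list mixes glial and neuronal genes. After group means were removed, r with Il33 was 0.725 for Gfap and 0.710 for Nefh, so arrays of the same group also varied together. Points of these correlations share arrays and groups, and they are given as descriptions.

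Markers of other cells moved with Il33 in several groups, though not in every group. In old cortex Drd2 arrays, replicates 1 to 4, the mean of 11 astrocyte markers was 0.70, 0.47, 0.22 and 0.06, in the same order as Il33, against -0.17 to 0.06 in the young arrays, and 3 of 11 rose (Gfap, Aldoc and Glul). In the same old arrays the mean of 14 oligodendrocyte markers ran from 0.05 to 0.69, against -0.0029 to 0.08 in young arrays, and 3 of 14 rose (Trf, Ermn and Mag). In striatum Drd2, 4 of 11 astrocyte markers rose, with means from -0.20 to -0.05 in old and -0.49 to -0.30 in young arrays. There the microglia means did not overlap either, at 0.07 to 0.17 in old and -0.06 to 0.05 in young arrays, and 2 of 15 markers were called, Tyrobp higher and Cd68 lower. The oligodendrocyte means in striatum Drd2 were 0.21 to 0.29 in old and -0.17 to 0.24 in young arrays, with 1 of 14 called (Trf, higher). In striatum Drd1a, 0 of 11 astrocyte and 0 of 14 oligodendrocyte markers were called, and the astrocyte means overlapped, at -0.21 to -0.02 in old and -0.46 to -0.06 in young arrays. In old cortex Drd1a arrays, replicates 1 to 4, the astrocyte mean was 0.40, 0.59, 0.70 and 0.79, not in the order of Il33, and 0 of 11 were called. The oligodendrocyte means in cortex Drd1a were -0.13 to 0.08 in old and -0.34 to -0.28 in young arrays, with 2 of 14 called, both higher. The microglia means there were -0.03 to 0.23 in old and -0.26 to -0.13 in young arrays, with 0 of 15 called. Of all features, 3.63% were called with age in cortex Drd2, 5.7% in striatum Drd2, 3.43% in striatum Drd1a and 0.453% in cortex Drd1a. The part of these markers in the Il33 result was not tested. Since the values are centred, it cannot be said whether any marker was absent.

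**Figure D2:**
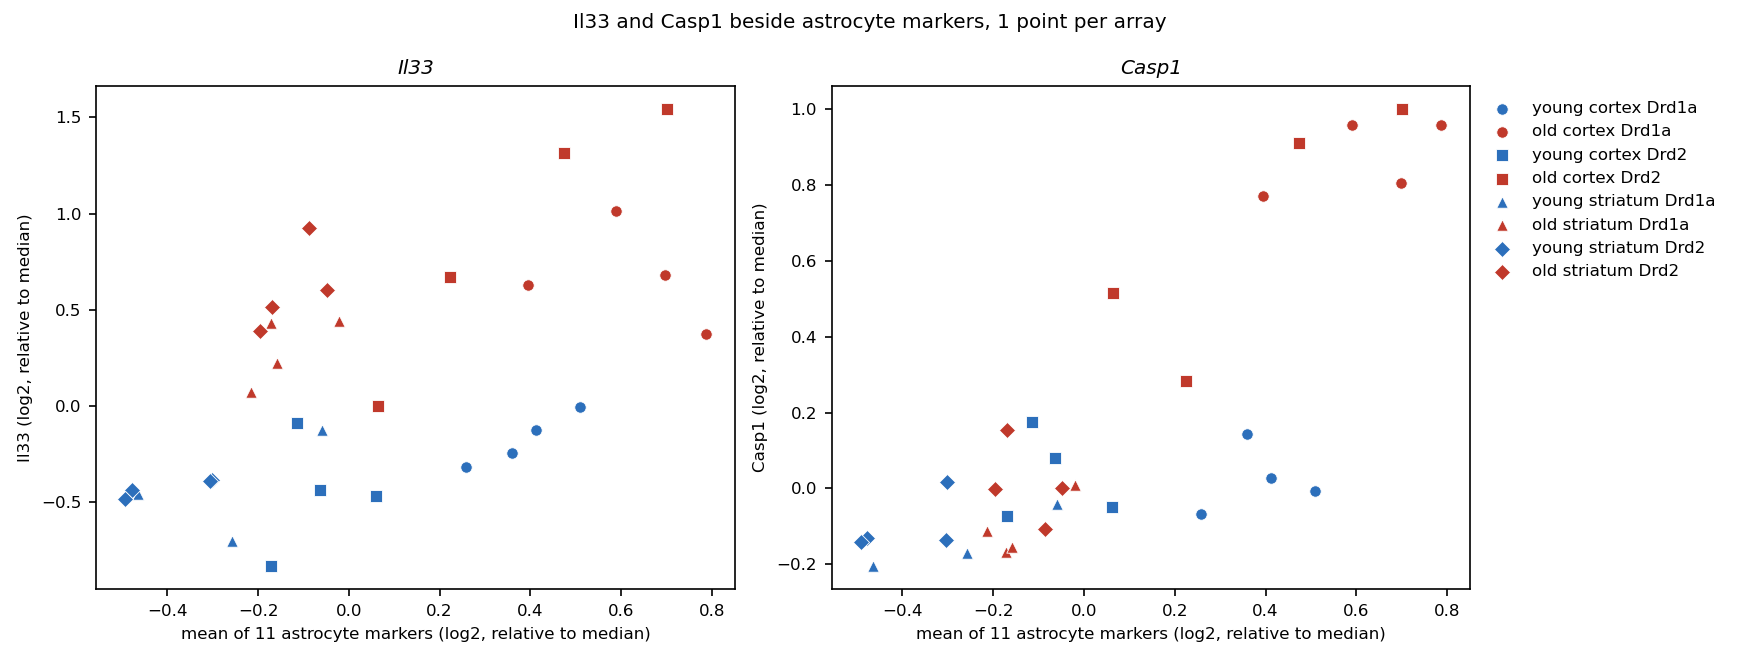
Il33 (left) and Casp1 (right) on each of 31 arrays against the mean of 11 astrocyte markers, all as log2 values relative to the feature's median (blue 6 weeks, red 2 years, symbols for cell population). Every red Il33 point lies above every blue one, by 0.0052 at the closest, and arrays were not compared at matched marker values. High Casp1 values are found among the old cortical arrays, whose marker means run from 0.06 to 0.79. After group means were removed, r with the astrocyte mean was 0.634 for Il33 and 0.607 for Casp1. With the oligodendrocyte, oligodendrocyte precursor, endothelial and microglia means it was 0.593, 0.395, 0.440 and 0.239 for Il33. For Casp1, in the same order, it was 0.608, 0.531, 0.474 and 0.311. The part of the markers was not tested.

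Casp1 (feature 6986648) encodes the inflammasome protease that cuts the precursors of interleukin-1 beta and interleukin-18. In cortex Drd1a arrays it was at -0.01, 0.03, 0.14 and -0.07 at 6 weeks and at 0.77, 0.96, 0.81 and 0.96 at 2 years. In cortex Drd2 arrays it was at -0.05, -0.07, 0.18 and 0.08 at 6 weeks and at 1.00, 0.91, 0.28 and 0.52 at 2 years. All 8 old cortical arrays lay above all 8 young ones, with the old Drd2 arrays more spread than the old Drd1a arrays. In striatum Drd1a arrays Casp1 was at -0.17, -0.21 and -0.04 at 6 weeks and at -0.17, 0.01, -0.11 and -0.15 at 2 years. In striatum Drd2 arrays it was at -0.13, -0.14, 0.02 and -0.14 at 6 weeks and at 0, -0.11, 0.15 and 0.00 at 2 years. Old and young striatal arrays overlapped in both populations.

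The age difference of Casp1 was 0.85 ± 0.10 log2 units in cortex Drd1a (limma, adjusted p = 3.79e-05) and 0.64 ± 0.10 in cortex Drd2 (limma, adjusted p = 0.00106), against 0.03 ± 0.11 in striatum Drd1a and 0.11 ± 0.10 in striatum Drd2. The age change in striatum minus that in cortex was -0.82 ± 0.15 in Drd1a cells (limma, adjusted p = 0.0811), where 0 features were called (0% of all) and 1252 had an unadjusted p under 0.05. In Drd2 cells the same difference was -0.54 ± 0.15 (limma, adjusted p = 0.369), beside 0.0184% of all features called, and it passed only when old cortex Drd2 replicate 3 was left out (-0.67, adjusted p = 0.0429). The Drd1a difference was called under array centring (-0.74, adjusted p = 0.0462), under array weights (-0.81, adjusted p = 0.00521) and with only the 4 groups in the model (-0.82, adjusted p = 0.00397). Fitted to the cortex Drd2 groups alone, the age difference of 0.64 had an adjusted p of 0.0799 (limma), short of the threshold.

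At 2 years Casp1 was lower in striatum than in cortex by 0.98 log2 units in old Drd1a cells (limma, adjusted p = 3.58e-08), where 4 of 9 members were called beside 16.1% of all features. In old Drd2 cells, where 2 of 9 members were called beside 11.3% of all features, it was lower by 0.67 (limma, adjusted p = 5.58e-05). At 6 weeks the corresponding differences were -0.16 ± 0.11 and -0.13 ± 0.10, neither called.

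Beside the cortical rise of Casp1, the microglia marker means in cortex Drd1a were -0.03 to 0.23 in old and -0.26 to -0.13 in young arrays, without overlap, although 0 of 15 single markers were called. The oligodendrocyte means there were -0.13 to 0.08 in old and -0.34 to -0.28 in young arrays, with 2 of 14 called (Trf and Ermn, both higher), and the astrocyte means were 0.40 to 0.79 in old and 0.26 to 0.51 in young arrays, with 0 of 11 called. In cortex Drd2 the microglia means were -0.04 to 0.17 in old and -0.05 to 0.03 in young arrays, with 0 of 15 called. The astrocyte means there were 0.06 to 0.70 in old and -0.17 to 0.06 in young arrays, with 3 of 11 called, all higher. The oligodendrocyte means were 0.05 to 0.69 in old and -0.0029 to 0.08 in young arrays, with 3 of 14 called, all higher. Of all features, 0.453% were called with age in cortex Drd1a and 3.63% in cortex Drd2. The part of these markers in the Casp1 result was not tested. The genes most like Casp1 over 31 arrays were Ank1 (r = 0.853), Acsbg1 (r = 0.848), Sdha (r = 0.846), Ndrg1 (r = 0.841) and Vwa5a (r = 0.839), and none of them is a member. Il33 and Casp1 themselves had r = 0.681 over the arrays and 0.581 after group means were removed.

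Irak3 (feature 6777510) encodes IRAK-M, a family member without normal kinase activity that is known to restrain Toll-like receptor signalling in macrophages. In striatum Drd1a arrays it was at -0.20, -0.03 and 0.03 at 6 weeks and at 1.19, 1.35, 0.94 and 0.68 at 2 years. In striatum Drd2 arrays it was at -0.24, -0.16, -0.12 and 0 at 6 weeks and at -0.04, 0.33, 0.19 and 0.11 at 2 years. The 4 old striatum Drd1a arrays were the highest of all 31 arrays, whereas old and young striatum Drd2 arrays overlapped at 1 old array. In cortex Drd1a arrays it was at -0.08, 0.04, 0.00 and -0.11 at 6 weeks and at 0.48, 0.35, 0.11 and 0.47 at 2 years. In cortex Drd2 arrays it was at -0.13, -0.11, -0.20 and -0.34 at 6 weeks and at 0.14, -0.02, -0.02 and -0.28 at 2 years. The cortical ages did not overlap in Drd1a cells and overlapped in Drd2 cells.

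The age difference of Irak3 was 1.11 ± 0.12 log2 units in striatum Drd1a (limma, adjusted p = 4.21e-06). It was 0.39 ± 0.11 in cortex Drd1a (limma, adjusted p = 0.128), 0.28 ± 0.11 in striatum Drd2 (limma, adjusted p = 0.169) and 0.15 ± 0.11 in cortex Drd2 (limma, adjusted p = 0.604). In striatum the age change in Drd2 cells was smaller than that in Drd1a cells by 0.83 ± 0.17 (limma, difference -0.83, adjusted p = 0.036), a contrast in which 1 of 9 members and 0.0734% of all features were called. The call was lost when any of 13 of the 15 arrays was left out, all but old striatum Drd1a replicate 4 and old striatum Drd2 replicate 2, with adjusted p from 0.0539 to 0.132 and the difference from -0.95 to -0.73 over the 15. It was also lost with only the 4 groups in the model (-0.83, adjusted p = 0.187), with limma-trend and robust moderation (-0.83, adjusted p = 0.0729) and without the 6 arrays whose median was above 0.05 (-0.75, adjusted p = 0.22). The age change in striatum minus that in cortex was 0.72 ± 0.17 in Drd1a cells (limma, adjusted p = 0.131), and it was called under array centring (0.80, adjusted p = 0.0292), quantile normalization (0.91, adjusted p = 0.0436) and array weights (0.74, adjusted p = 0.0132).

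At 2 years Irak3 was lower in Drd2 than in Drd1a cells by 0.89 log2 units in striatum (limma, adjusted p = 3.94e-06), where 2.81% of all features and 1 of 9 members were called. In old cortex it was lower in Drd2 cells by 0.40 (limma, adjusted p = 0.0286), where 6.48% of all features and 1 of 9 members were called, although the arrays overlapped. Among Drd1a cells it was higher in old striatum than in old cortex by 0.69 (limma, adjusted p = 3.56e-05). Beside this rise, the markers of other cells in striatum Drd1a lay in overlapping ranges: microglia means were -0.07 to 0.22 in old and -0.10 to 0.20 in young arrays with 0 of 15 called, and endothelial means -0.08 to 0.26 and 0.02 to 0.16 with 0 of 6 called. After group means were removed, r with Irak3 over 31 arrays was 0.652 for oligodendrocyte precursor, 0.638 for endothelial and 0.575 for microglia marker means. For oligodendrocyte and astrocyte means it was 0.328 and 0.316. Their part in the Irak3 result was not tested. Most like Irak3 over 31 arrays were Agbl2 (r = 0.870), Il13ra1 (r = 0.832), Nxf7 (r = 0.828), Smyd3 (r = 0.821) and Gimap8 (r = 0.805). With group means removed, r with Irak3 was 0.703 for Il13ra1, a chain of the interleukin-4 and interleukin-13 receptor, and 0.212 for Agbl2.

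Peli2 (feature 6818742) encodes a Pellino ubiquitin ligase that acts on IRAK1. In cortex Drd2 arrays it was at 0, 0.49, 0.47 and 0.25 at 6 weeks and at -0.46, -0.11, -0.42 and -0.13 at 2 years. In striatum Drd2 arrays it was at 0.60, 0.61, 0.71 and 0.51 at 6 weeks and at 0.17, 0.21, 0.26 and 0.18 at 2 years. Every old Drd2 array lay below every young Drd2 array of its region. In cortex Drd1a arrays it was at -0.53, -0.61, -0.79 and -0.52 at 6 weeks and at -0.28, -0.73, -0.45 and -0.36 at 2 years. In striatum Drd1a arrays it was at 0.04, 0.05 and 0.15 at 6 weeks and at 0.01, -0.06, -0.05 and -0.03 at 2 years. The ages overlapped in cortex Drd1a and lay next to each other without overlap in striatum Drd1a.

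Peli2 fell by 0.58 ± 0.10 log2 units in cortex Drd2 (limma, adjusted p = 0.00138) and by 0.40 ± 0.10 in striatum Drd2 (limma, adjusted p = 0.0104), the latter 1.32-fold lower. The cortex Drd2 call was lost when the model held only the 2 groups compared (adjusted p = 0.0759). In cortex Drd1a the difference was 0.16 ± 0.10 (limma, adjusted p = 0.68) and in striatum Drd1a -0.11 ± 0.11 (limma, adjusted p = 0.697). The age change in cortex was lower in Drd2 than in Drd1a cells by 0.74 ± 0.14 (limma, difference -0.74, adjusted p = 0.0287), where 0.104% of all features and 1 of 9 members were called. This call was lost, with adjusted p from 0.0504 to 0.0822, without young cortex Drd2 replicate 2 or 3, old cortex Drd2 replicate 1 or 3, young cortex Drd1a replicate 2 or 3, or old cortex Drd1a replicate 1 or 4. It was also lost under quantile normalization (-0.83, adjusted p = 0.0532), under array centring (-0.68, adjusted p = 0.0815), with only the 4 groups in the model (-0.74, adjusted p = 0.188) and without the 6 arrays of high median (-0.65, adjusted p = 0.228).

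At 6 weeks Peli2 was higher in Drd2 than in Drd1a cells, by 0.91 ± 0.10 in cortex (limma, adjusted p = 1.09e-07), where 12% of all features and 1 of 9 members were called, and by 0.53 ± 0.11 in striatum (limma, adjusted p = 0.00281), where 3.05% and 1 of 9 were called. At 2 years the difference was 0.18 ± 0.10 in cortex and 0.24 ± 0.10 in striatum, neither called. The old Drd2 means (-0.28 ± 0.19 in cortex and 0.20 ± 0.04 in striatum, SD, n = 4) thus lay between the young Drd2 and young Drd1a means of the same region. In the same Drd2 arrays the mean of 8 direct-pathway markers was higher with age, from -1.19 to -1.01 in young and -0.54 to -0.32 in old cortex arrays, and from -1.38 to -1.18 in young and -0.29 to -0.05 in old striatum arrays. Its part in the Peli2 result was not tested. Peli2 was also higher in striatum than in cortex at both ages and in both cell types. The differences were 0.69 (limma, adjusted p = 1.15e-05) in young Drd1a, 0.31 (adjusted p = 0.0497) in young Drd2, 0.42 (adjusted p = 0.00214) in old Drd1a and 0.48 (adjusted p = 0.00115) in old Drd2 cells. The young Drd2 call was lost, with an adjusted p of 0.0631 (limma), when same-numbered cortex and striatum arrays were taken as a block. At 6 weeks it was the only one of 9 members called between the regions, beside 19% of all features in Drd1a and 7.58% in Drd2 cells.

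**Figure D3:**
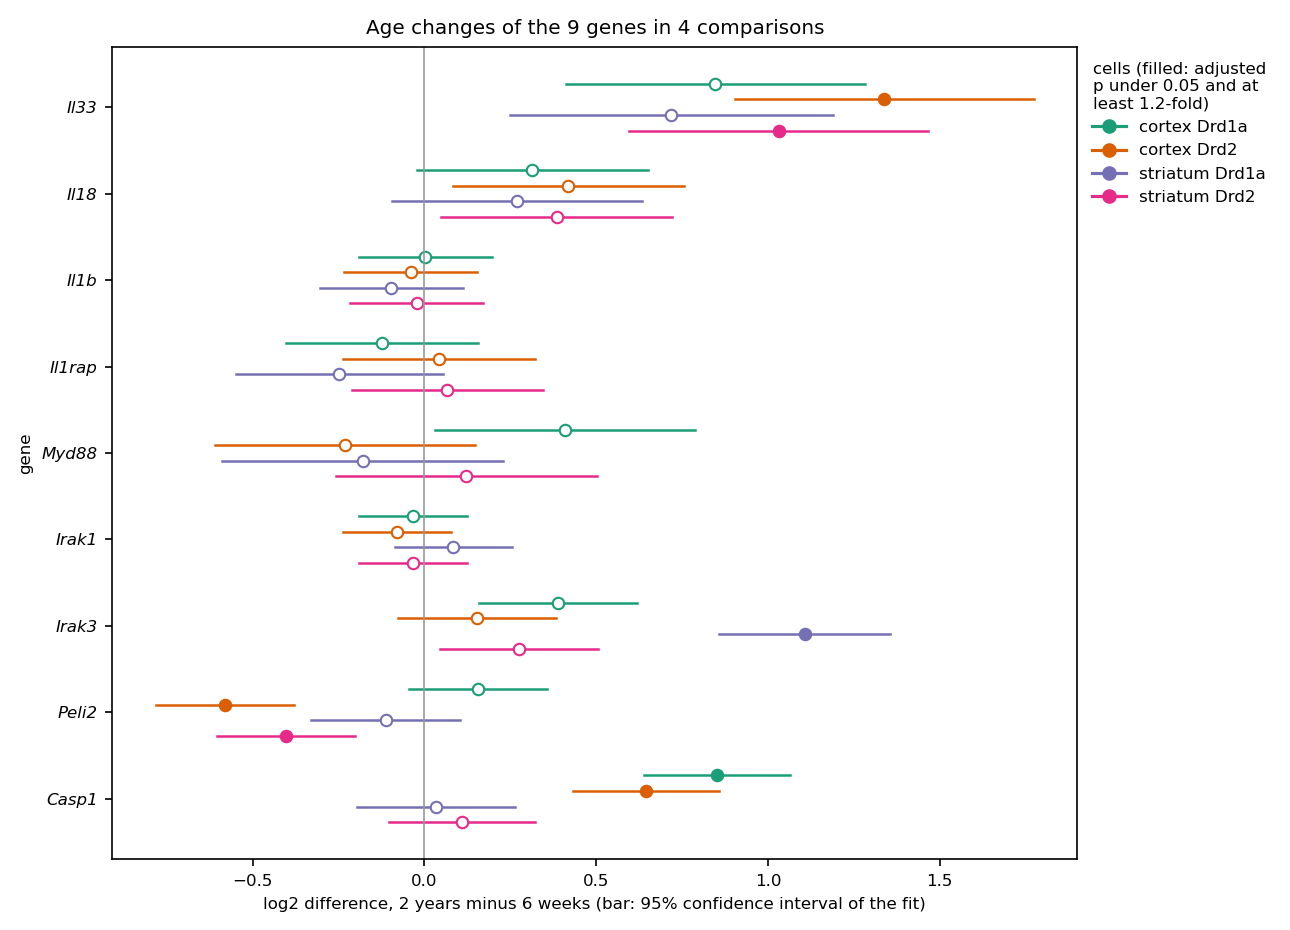
Age difference (2 years minus 6 weeks, log2) of the 9 genes in each of 4 cell populations, with the 95% confidence interval of the limma fit; filled points passed the adjusted p and the 1.2-fold threshold. Il33 lies above 0 in all 4 populations, Casp1 in the cortical ones, Irak3 farthest in striatum Drd1a at 1.11, and Peli2 below 0 in the Drd2 populations.

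Neither of the cytokines that Casp1 acts on was called in a single age comparison. Il18 (feature 6989015) was higher with age by 0.31 ± 0.16 in cortex Drd1a, 0.42 ± 0.16 in cortex Drd2, 0.27 ± 0.18 in striatum Drd1a and 0.38 ± 0.16 in striatum Drd2, with limma adjusted p from 0.167 to 0.583. Old and young arrays overlapped in all 4 populations, and only without old striatum Drd2 replicate 3 did 1 of them pass (0.54, adjusted p = 0.0492). Averaged over the 4 it rose by 0.35 ± 0.08 (limma, adjusted p = 0.00345). The mean of the 2 Drd1a comparisons was 0.29 ± 0.12 (limma, adjusted p = 0.174) and did not pass. Il1b (feature 6890838) had age differences from -0.10 to 0.00, and all 31 of its values lay between -0.22 and 0.27. The 95% interval of its average age difference ran from -0.14 to 0.06, which leaves out a change of 1.2-fold in either direction. How far either feature lay above background cannot be read from centred values.

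Il1rap (feature 6840261), the subunit shared by the interleukin-1 and interleukin-33 receptors, had age differences from -0.25 to 0.07, with an average of -0.07 ± 0.07 (limma, adjusted p = 0.682). Myd88 (feature 6999416), the adaptor below both receptor families, was at -0.03, -0.12, -0.11 and 0.33 in young cortex Drd1a and at 0.39, 0.28, 0.58 and 0.44 in old cortex Drd1a arrays. The difference was 0.41 ± 0.18 (limma, adjusted p = 0.471), with young replicate 4 inside the range of the old arrays. At 2 years Myd88 was lower in striatum than in cortex Drd1a cells by 0.65 ± 0.18 (limma, adjusted p = 0.0115), without overlap of the arrays. Irak1 (feature 7017609), the signalling kinase of the group, had age differences from -0.08 to 0.08, and its values over all arrays ran from -0.35 to 0.23. In old Drd1a cells it was 0.23 ± 0.08 higher in striatum than in cortex (limma, adjusted p = 0.0322), a 1.17-fold difference that lies under the fold threshold.

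The wider pathway was read from 6 lists of 93 genes, of which 72 were measured on 1 feature each. The lists, like the members, were chosen with earlier results of these data known, so their counts are descriptions. In cortex Drd1a 1 of 72 was called (1.39%, beside 0.453% of all features), in cortex Drd2 4 (5.56%, beside 3.63%), in striatum Drd1a 2 (2.78%, beside 3.43%) and in striatum Drd2 3 (4.17%, beside 5.7%). The median age difference over the 72 genes was 0.06, -0.02, -0.04 and 0.01 in these 4 populations, and over all features 0.04, -0.02, -0.05 and -0.01. Members made up 7 of these 10 calls. The 3 others were Txnip, higher by 0.61 ± 0.14 in cortex Drd2 (limma, adjusted p = 0.0135), Il1rapl2, lower in striatum Drd1a with a difference of -0.93 ± 0.21 (limma, adjusted p = 0.0111), and Nfkbib, lower in striatum Drd2 with a difference of -0.30 ± 0.08 (limma, adjusted p = 0.0132). Txnip encodes a thioredoxin-binding protein that can bind the sensor NLRP3, Il1rapl2 a synaptic relative of the interleukin-1 receptors, and Nfkbib an inhibitor of NF-kappaB.

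By role, the lists differed in where their calls lay. Of 6 measured interleukin-1 family ligands only Il33 was called in a single comparison, and the non-member ligands Il1a, Il1rn and Il1f10 had differences from -0.20 to 0.18. Of 9 receptors and binding proteins only Il1rapl2 was called. None of 17 Toll-like receptors and co-receptors was called in any of the 4 comparisons, with differences from -0.21 (Tlr12, striatum Drd1a) to 0.30 (Tlr7, striatum Drd2) and limma adjusted p of at least 0.0849. Of 16 receptor-proximal adaptors, IRAKs and Pellinos, Irak3 rose and Peli2 fell, and Traf6 was at 0.39 in cortex Drd1a without a call. Of 14 inflammasome genes Casp1 and Txnip were called, both higher, and the DNA sensor gene Aim2 had differences from -0.64 to -0.20, called only in the average of the 4 (-0.49 ± 0.14, limma, adjusted p = 0.0144). Of 10 NF-kappaB subunits and inhibitors only Nfkbib was called.

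**Figure D4:**
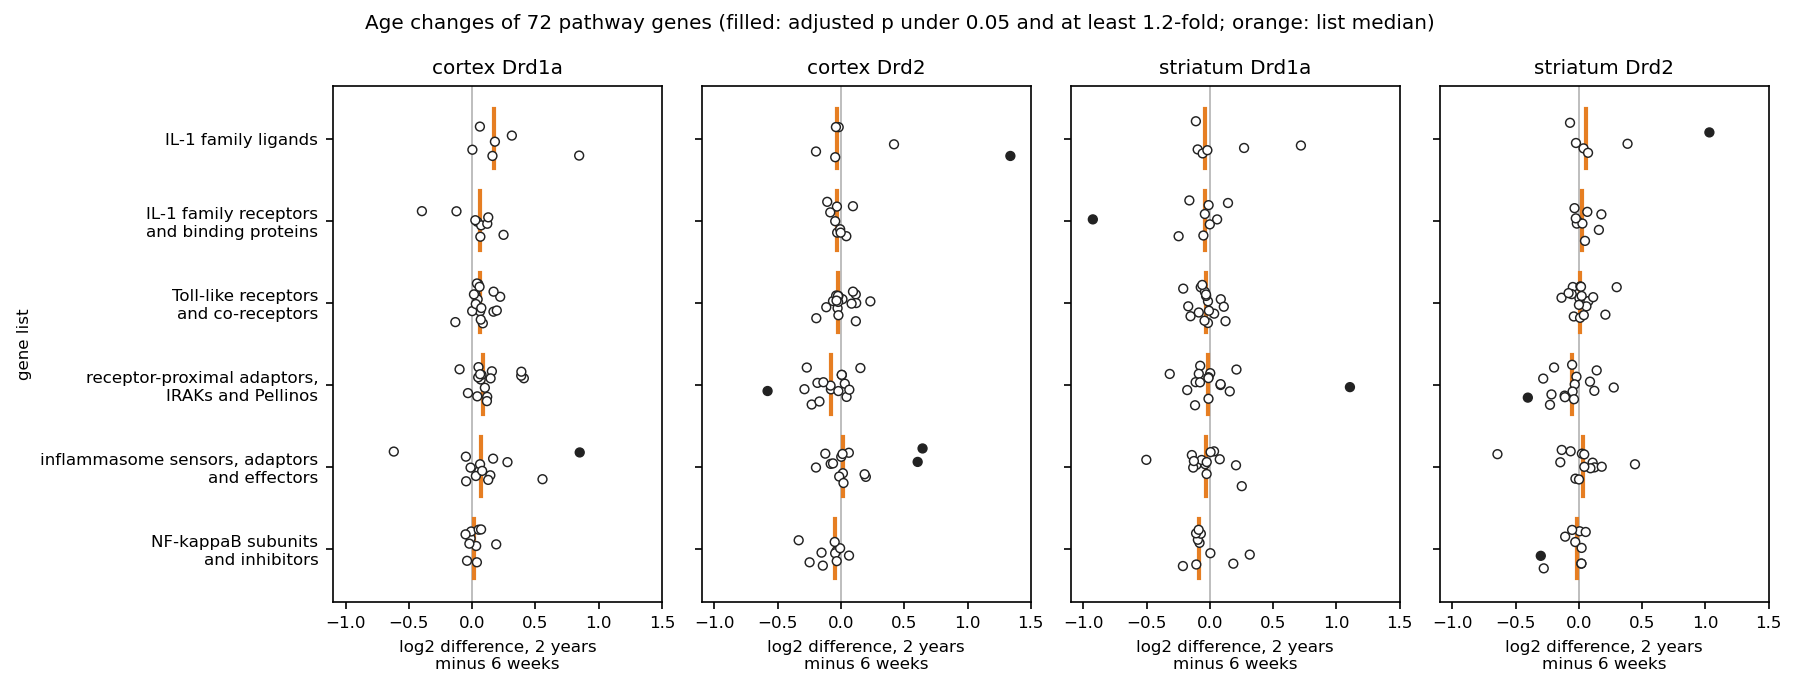
Age differences (2 years minus 6 weeks, log2) of 72 pathway genes in 6 lists and 4 cell populations, 1 point per gene with orange bars at list medians and filled points past the adjusted p and the 1.2-fold threshold. Most points lie near 0 in every list, and 10 filled points over the 4 panels stand apart.

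Promoters are shown for Il33, Casp1 and Irak3, the 3 members called higher with age in single populations, as the 250 bases before each RefSeq transcription start on build GRCm38.p6, read 5′ to 3′ on the gene's strand, with capitals marking TATAAA on that strand. Il33 has 2 such starts, the first with TATAAA at 203 to 198 bases and the second at 29 to 24 bases before the start, and the single feature does not tell their transcripts apart. The windows are chr19:29924863-29925112 (plus strand), chr19:29945540-29945789 (plus strand), chr9:5298267-5298516 (plus strand) and chr10:120202131-120202380 (minus strand, the first of 2 Irak3 starts).
Il33 start 1: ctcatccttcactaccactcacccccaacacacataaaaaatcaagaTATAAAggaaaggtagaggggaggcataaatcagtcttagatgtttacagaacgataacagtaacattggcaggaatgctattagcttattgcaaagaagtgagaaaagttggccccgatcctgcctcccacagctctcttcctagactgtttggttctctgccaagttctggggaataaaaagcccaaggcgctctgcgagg
Il33 start 2: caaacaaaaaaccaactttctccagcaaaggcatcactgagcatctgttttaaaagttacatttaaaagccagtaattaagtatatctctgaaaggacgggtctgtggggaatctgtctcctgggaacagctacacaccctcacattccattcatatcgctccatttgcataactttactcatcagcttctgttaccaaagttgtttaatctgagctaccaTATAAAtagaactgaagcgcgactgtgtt
Casp1: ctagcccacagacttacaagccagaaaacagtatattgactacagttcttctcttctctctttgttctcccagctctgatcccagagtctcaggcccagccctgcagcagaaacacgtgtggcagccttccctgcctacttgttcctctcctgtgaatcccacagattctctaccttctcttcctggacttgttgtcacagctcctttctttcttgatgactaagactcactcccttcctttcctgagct
Irak3 start 1: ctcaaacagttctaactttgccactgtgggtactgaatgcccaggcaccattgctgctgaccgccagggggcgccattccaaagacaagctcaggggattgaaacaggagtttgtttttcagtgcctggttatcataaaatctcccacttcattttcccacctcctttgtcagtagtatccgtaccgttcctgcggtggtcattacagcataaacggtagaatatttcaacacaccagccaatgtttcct

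In these 4 windows 5 motifs were searched on both strands: the NF-kappaB consensus, 2 runs of GAAA parted by any 2 bases (interferon response), TTCNNNGAA (STAT), TGANTCA (AP-1) and TATAAA. Apart from the 2 TATAAA in the Il33 windows there was no match, and the Casp1 and Irak3 windows held none of the 5. Among 32851 promoters of this length, 7.25% held the NF-kappaB consensus, 2.98% the GAAA pair, 7.02% TTCNNNGAA, 6.75% TGANTCA and 12.4% TATAAA. Among the other members, both Irak1 windows held the NF-kappaB consensus, at 18 to 9 and at 21 to 12 bases before the start, where it reads on both strands. The Myd88 window held a GAAA pair at 40 to 31 bases, a TTCNNNGAA match at 46 to 38 bases that overlaps it and TATAAA at 160 to 155 bases, with another on the opposite strand at 164 to 159 bases. Il1b held TATAAA at 31 to 26 bases and Il18 the same letters on the opposite strand at 175 to 170 bases. Irak1, Myd88 and Il1b were not called with age, and Il18 was called only in the average of the 4 comparisons. The Casp1 window held 1 CpG and the Il33 windows 4 each, beside a median of 6 over all promoters. The Irak3 windows held 6 CpG at start 1 and 19 at start 2, the latter window not being printed. A match or its absence describes these letters only.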

How the data were processed

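RNA from 31 TRAP purifications was fragmented, biotin-labelled and run on mouse exon arrays, per the labels' protocols. The deposited log2 values were made with RMA, a multi-array summary method, and build mm8, per the submitters' processing notes, with versions not given in the sources used here. RMA corrects background, equalises arrays and pools probes, so small or single-exon differences can be compressed. Tested on the deposited table, each feature was centred on its own median over the arrays (16341 of 16345 features), with values from -5.08 to 4.59, so no signal over background could be computed and the number of arrays limits the precision. Of the deposited columns, 3 are listed with the unit other, since 1 cell in each lacks its decimal point; those 3 cells and 1 blank cell were treated as missing, and none belongs to a member. Groups came from the sample labels. Gene names came from the platform annotation: 14793 carried 1 symbol, 814 several and 738 were not listed.

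Group means of all arrays were compared with limma 3.58.1 (R 4.3.3), with empirical Bayes moderation (23 residual and 4.68 prior degrees of freedom), two-sided, with Benjamini-Hochberg adjustment over all 16345 features. The median standard error of an age difference was 0.099 for 4 arrays against 4 and 0.11 for 4 against 3. All 9 measured members are named, as are up to 3 called genes of each pathway list per age comparison and the 5 features with 1 symbol most correlated with Il33, Casp1 or Irak3. Txnip, Il1rapl2 and Nfkbib follow from that rule; Aim2, Traf6, Tlr7, Tlr12 and the called markers were named after their values were seen. The members and lists were chosen with earlier results of these data known. The fit was also tested on simulated data. Alternatives were quantile normalization, array centring, only the groups compared, limma-trend with robust moderation, array weights, a replicate block, a 1.5-fold and no fold threshold, leaving out 6 arrays with medians above 0.05, and leaving out each array. Added after values had been seen were the mean of the 2 Drd1a comparisons, a block of same-numbered cortex and striatum arrays, and other scalings for the separation of old from young arrays. Promoter sequences and starts are from RefSeq on GRCm38.p6, matched by symbol for 10 of 10 members (13 windows), and no other coordinates of that build were used.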

Additional observations from a re-analysis of the deposited data

Results flagged for a closer look

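In 63 sets of 4 arrays (1 gene in 1 group), 4 arrays lay farther from the other 3 than Dixon's 95% limit allows, and chance passes this limit in about 1 set of 20. Casp1 was at 0.017 in young striatum Drd2 replicate 3, above -0.14 to -0.13 in the others. Irak1 was at 0.20 in young striatum Drd2 replicate 4, above 0.06 to 0.08. Il18 was at -0.049 in old cortex Drd2 replicate 2, below 0.27 to 0.32. Il1b was at 0.27 in old striatum Drd1a replicate 2, above -0.22 to -0.14. The Il1b array had the highest array median of all (0.13) and the Irak1 array a median of 0.09, both among the 6 above 0.05. Medians of the Casp1 and Il18 arrays were 0.0005 and -0.063. These are small differences for Casp1 and Irak1, and no cause was tested.

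Among 36 tests of whether an age change of a member differed between cell types or regions, 2 passed (limma, Benjamini-Hochberg over all features). Of all features, 0.104% were called between cell types in cortex and 0.0734% in striatum. Between regions, 0% were called in Drd1a cells and 0.0184% in Drd2 cells. The age change of Peli2 in cortex was lower in Drd2 than in Drd1a cells (difference -0.74, adjusted p = 0.0287). That of Irak3 in striatum was lower in Drd2 than in Drd1a cells (difference -0.83, adjusted p = 0.036). Both had old and young arrays without overlap in the population that changed, as did 9.11% of all features in cortex Drd2 and 11.8% in striatum Drd1a. Both calls were lost under several alternatives, among them leaving out single arrays.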

How the results depend on the processing

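No result turned its direction past the threshold under any alternative run. The counts over all features moved most. In cortex Drd1a the 74 called features became 23 with quantile normalization, 21 with only the groups compared, 342 with array weights, 31 at 1.5-fold and 35 without the 6 arrays of high median. They numbered 15 to 63 with 1 array left out, and stayed within 1.5 times only without young replicate 3 (63) or old replicate 3 (51). In cortex Drd2 the 594 became 986, 55 (only the groups compared), 131 (1.5-fold) and 331 (without the 6 arrays), and 176 to 843 with 1 array left out. There the count fell to 299 and 334 without young replicates 2 and 3, and to 176 and 345 without old replicates 1 and 2. In striatum Drd1a the 561 became 73 with only the groups compared, 1787 with array weights and 110 at 1.5-fold, and 170 to 636 with 1 array left out, the count being 170, 259 and 311 without young replicates 1 and 3 and old replicate 3. In striatum Drd2 the 932 became 469 with only the groups compared and 207 at 1.5-fold.

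The members called in cortex Drd1a (1) became 2 with only the groups compared, which added Il33 (0.85, adjusted p = 0.0472), and 3 with array weights, which added Il33 (0.96, adjusted p = 0.00379) and Irak3 (0.36, adjusted p = 0.0296). In cortex Drd2 the 3 became 0 with only the groups compared, where Il33 was at 1.34, Casp1 at 0.64 and Peli2 at -0.58 with adjusted p from 0.0759 to 0.0799 (limma). At that setting 55 features were still called. In striatum Drd1a array weights added Il33 (0.85, adjusted p = 0.00804), giving 2 members, and in striatum Drd2 they added Irak3 (0.36, adjusted p = 0.0318). At 1.5-fold Peli2 was lost at -0.58 in cortex Drd2 and at -0.40 in striatum Drd2, which left 1 member there. Casp1 in cortex Drd1a, Il33 in striatum Drd2 and Irak3 in striatum Drd1a kept their calls under every alternative run. Among 74 other results with 1745 alternatives, 1697 stayed on their side of the threshold, 32 lost a call and 16 gained one.

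With a replicate block, 2 members were called in striatum Drd1a, Il33 being added (0.79, adjusted p = 0.0442), and no other call of a member in the 4 age comparisons changed. Deviations from the group means had correlations from -0.355 to 0.234 between same-numbered old and young arrays and from -0.198 to 0.219 between same-numbered cortex and striatum arrays of 1 age and cell type, above 0.1 in 3 of 15 pairs each, so the numbers were not taken as pairs. A block of those cortex and striatum arrays, added after values had been seen, ended 1 call of a member between regions, Peli2 in young Drd2 cells (0.31, adjusted p = 0.0631), and left the other 7. Fitting only the groups compared was not possible for the average of the 4 comparisons, which uses all groups, and the choice between several features of a gene did not arise. The centred values give no signal over background, so depth limits on the weakest features could not be stated.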
